A study of Homo sapiens with 14 samples.

Results

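Phospholipid flippases are the P4-type ATPases that move phospholipids such as phosphatidylserine from the outer to the inner leaflet of cell membranes, and 10 genes, TMEM30A for a partner protein and the others for such ATPases, were followed in glioblastoma cells after knockdown of the long non-coding RNA LINC00152. ATP9A, the gene that led to this group, was chosen by its lower signal after siLINC00152 in U87 cells, so its U87 values are given as a description with no test. The other members are ATP9B, ATP8A1, ATP8B1, ATP8B2, ATP10A, ATP10D, ATP11A, ATP11B and TMEM30A. They were found through the transcript accession of each array probe, which named 20992 genes in all, and the 10 genes had 13 probes among 50599. ATP9A, ATP9B and TMEM30A had 2 probes each.

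Most flippases leave the endoplasmic reticulum only with a partner protein, and TMEM30A, also called CDC50A, is the widely expressed partner. ATP9A and ATP9B are exceptions that reach their membranes without it. ATP9A resides in endosomes and the trans-Golgi network and takes part in the recycling of membrane proteins, ATP11A acts at the plasma membrane, where it keeps phosphatidylserine on the inner leaflet, and ATP8B1 is best known from inherited cholestasis of the liver.

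RNA from 14 cultures of A172 and U87, both established human glioblastoma cell lines, was measured on Agilent one-colour arrays, which read the brightness of labelled RNA bound to printed probes. Cells were electroporated with a negative control siRNA or with siLINC00152, which targets exon 1 of LINC00152, and were harvested 40 h later according to the labels, while the study's text gives a later time. A172 had 3 control and 3 siLINC00152 cultures and U87 had 4 of each, and the labels describe the replicates of a line as independent biological experiments. Each A172 slide held the control and the siLINC00152 array of the same replicate number, whereas all U87 arrays lay on another slide with controls in the first row and knockdowns in the second, so cell line and slide cannot be told apart, nor can siRNA and slide row in U87.

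Signals are given as log2 values relative to the 75th percentile of the same array. The scanner software marks a spot as well above background when it exceeds the local background by a set margin, and this is called detection here. Detected spots made up 57.3% to 69.0% of each A172 array (median 64.0%) and 35.7% to 48.3% of each U87 array (median 46.0%), so dim genes were more often out of reach in U87. Replicate 3 was the dimmest in both U87 groups: 35.7% of the spots of its control array were detected, with a 75th percentile signal of 33.0 before the log2 scale, against 46.1% to 48.3% and 56.7 to 69.0 on the other controls, and 40.4% with 42.6 on its siLINC00152 array. The largest U87 pair differences of TMEM30A, ATP8B3, VPS29 and XKR8, genes given further on, are those of replicate 3, and the part of its dim arrays in them was not tested. The number of arrays limits the precision of every value.

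The knockdown itself was visible in both lines. The LINC00152 probe A_24_P273143 read 2.63, 2.44 and 2.48 in the A172 control cultures and 0.23, -0.42 and -0.10 in the A172 siLINC00152 cultures. In U87 it read 1.94, 1.83, 1.71 and 1.82 in controls and -1.21, -0.88, -0.74 and -0.79 after siLINC00152. The groups did not overlap in either line, and LINC00152 fell by 2.61 (SE 0.24) in A172 and fell by 2.73 (SE 0.21) in U87 on the log2 scale, with limma adjusted p = 0.000731 and 4.96e-05. With normexp, another background correction, the changes were -2.23 and -1.52 (limma adjusted p = 4.46e-06 and 7.62e-05).

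The line markers fitted cultured glioblastoma cells only in part. VIM and NES, intermediate filament genes, and the adhesion receptor gene CD44 were detected on all arrays of both lines. SOX2, a neural stem cell factor, was detected on all 6 A172 arrays and on 0 of 8 U87 arrays, and OLIG2 on 6 and 3. The astrocyte gene S100B was detected on no array and GFAP by 1 of its 2 probes on 1 A172 array. Of markers of other cells, the leukocyte genes CD68, CD3E and PTPRC and the endothelial gene CDH5 were detected in both lines with at least 1 probe, PECAM1 in A172 alone, the epithelial gene EPCAM on 1 A172 array and CDH1 on none. Of the leukocyte and endothelial probes, 4 and 2 were tested in A172 and 3 and 1 in U87, and none was called between the siRNA groups, with or without replicate pairs as blocks. Epithelial probes were tested in neither line and PECAM1 not in U87.

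Shown next are siLINC00152 #1 and the primers that define which gene was followed as ATP9A by quantitative PCR. The study names #1 for the knockdown measured in both lines and lists another siRNA against exon 1. Its text does not say which of them the arrayed cells received, so the use of #1 there is inferred. The sequences come from the study's oligonucleotide list. The listed strand of siLINC00152 #1 shares 19 bases in a row with a LINC00152 forward primer of the same list, so it has the orientation of the transcript and its reverse complement is the strand that pairs with LINC00152. Capitals mark bases 2 to 8 of that reverse complement, its seed if this strand serves as the guide, and the matching bases of the listed strand. The list does not say which strand is loaded. Primers are in lower case throughout.
siLINC00152 #1 as listed: tgcctgtcttcagatctTCACAGCa
siLINC00152 #1, reverse complement: tGCTGTGAagatctgaagacaggca
ATP9A forward primer: gatgctgaacctggctctgt
ATP9A reverse primer: agtgtctgagaagcacggtg
The longest run shared between either strand of this siRNA and either ATP9A primer was 5 bases. That covers the primers alone: no flippase transcript was searched for the seed, so a match there was not tested.

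ATP9A signal was lower after siLINC00152 in every replicate pair of both lines, by both probes. In A172 controls probe A_23_P380614 read 0.31, 0.76 and 0.46, and after siLINC00152 it read -0.90, -0.84 and -1.02. Probe A_33_P3375314 read 0.30, 0.63 and 0.63 in A172 controls and -1.00, -0.85 and -0.45 after siLINC00152. ATP9A was detected on all 6 A172 arrays by both probes, and the siRNA groups did not overlap.

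In U87 controls ATP9A probe A_23_P380614 read -1.03, -0.51, -1.42 and -0.72, and after siLINC00152 it read -3.85, -2.76, -3.39 and -2.90. Probe A_33_P3375314 read -0.80, -1.02, -1.45 and -1.34 in U87 controls and -3.24, -3.93, -3.39 and -2.96 after siLINC00152. Both ATP9A probes were detected on 3 of 4 U87 control arrays, with control replicate 3 as the exception, and on 0 of 4 siLINC00152 arrays. With each siLINC00152 array set to its lowest detected signal and the controls as read, undetected replicate 3 included, ATP9A was 2.20-fold lower by probe A_23_P380614 and 1.88-fold lower by probe A_33_P3375314. These are not lower bounds, as undetected probes can read above the lowest detected signal. TMEM30A probe A_33_P3380982 was undetected at -1.38 on siLINC00152 replicate 3, where the lowest detected signal was -1.75. The ATP9A fold values also depend on the background correction: with normexp, which adds an offset of 50 to every signal, the fitted U87 log2 fold changes were -0.39 and -0.38. These U87 values selected the gene and support nothing further.

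**Figure D1:**
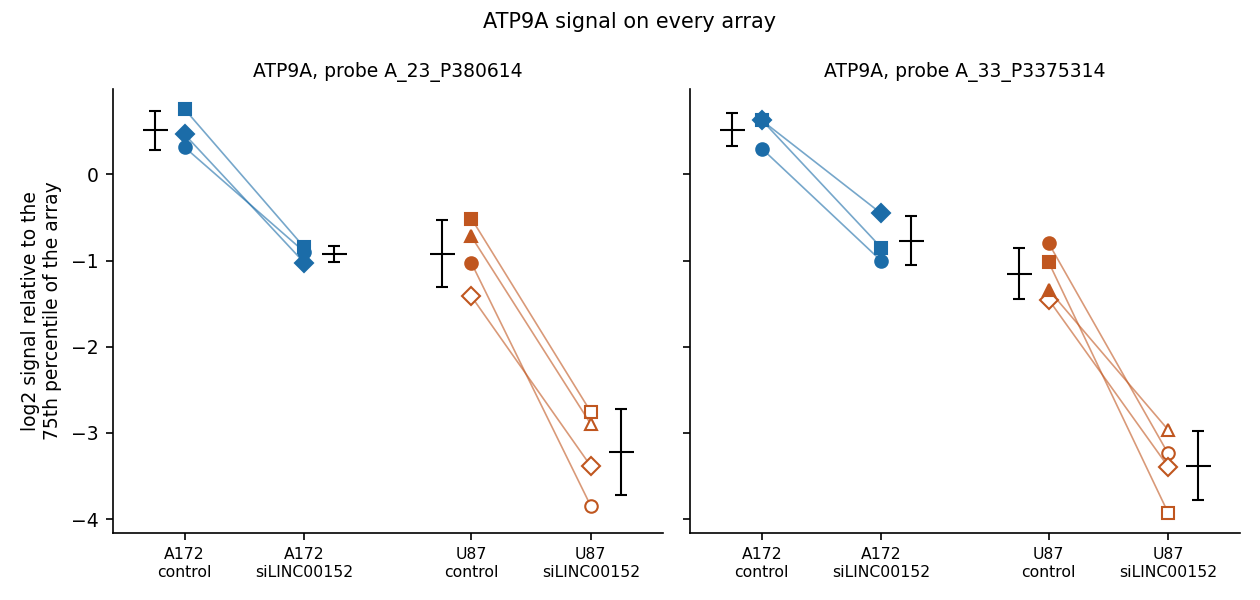
Log2 signal of both ATP9A probes relative to the 75th percentile of each array, for every culture. Lines join control and siLINC00152 arrays of the same replicate number, markers tell replicates apart, hollow markers are arrays on which the probe was not detected, and black bars are group means with SD. All A172 points are filled, and all U87 siLINC00152 points are hollow and lie at -2.76 or lower.

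Across the groups both ATP9A probes had the same highest and lowest group. A172 controls were highest, at 0.51 ± 0.22 (SD, n = 3) for probe A_23_P380614 and 0.52 ± 0.19 (SD, n = 3) for probe A_33_P3375314. A172 siLINC00152 cultures, at -0.92 ± 0.09 and -0.77 ± 0.28 (SD, n = 3), overlapped with U87 controls, at -0.92 ± 0.39 and -1.15 ± 0.30 (SD, n = 4), so these middle groups did not differ beyond their spread, and their order was not the same by the 2 probes. U87 siLINC00152 cultures were lowest, at -3.22 ± 0.50 and -3.38 ± 0.40 (SD, n = 4), below detection. Because line and slide coincide, the order between lines is a description.

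The A172 contrast did not choose ATP9A and was tested. Its SE, p and rank are not independent of U87, as the model estimated each probe's spread over the arrays of both lines. ATP9A stood at 37.0% of its control level by probe A_23_P380614 and at 40.9% by probe A_33_P3375314. The log2 fold change of the first probe was -1.43 (SE 0.32, 95% interval -2.11 to -0.76) with limma adjusted p = 0.233, and that of the other was -1.29 (SE 0.29, 95% interval -1.91 to -0.66) with limma adjusted p = 0.265. A probe was called when its adjusted p was under 0.2 and its log2 fold change exceeded 0.5 in size, so neither ATP9A probe passed, although they ranked 55 and 60 by p among 28338 probes tested in A172.

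Arrays of the same replicate number were taken as pairs. What remained of the arrays after their group means were taken off correlated within each number (0.675 to 0.794 in A172, 0.373 to 0.864 in U87). The number coincides with the slide in A172 and with the position in the slide row in U87. Paired cultures therefore cannot be told apart from a shared slide or position. Taking off group means by itself pushes correlations between different numbers towards negative values. Between different numbers the A172 correlations lay between -0.701 and -0.0436 and the U87 correlations between -0.772 and 0.411, where 2 of them exceeded the lowest same-number value, that of replicate 1. The ATP9A differences within the A172 pairs ran from -1.60 to -1.21 for probe A_23_P380614 and from -1.48 to -1.08 for probe A_33_P3375314. With the pairs as blocks, ATP9A fell by both probes in A172, with limma adjusted p = 0.0142 and 0.0585 and ranks 84 and 290. With the second probe this call ended when any single A172 pair was left out (limma adjusted p = 0.261 to 0.333), and with the first it did not (0.0764 to 0.134). With normexp and no block, ATP9A also passed in A172, at -0.98 and -0.92 with limma adjusted p = 0.00901 and 0.0122. With each line fitted by itself, 0 of 10 tested flippase probes were called in A172. Over the alternatives without blocks and with every array kept, limma adjusted p of the ATP9A probes reached 0.506 and 0.619.

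The other flippases were at very different distances from the detection limit. ATP8A1, ATP10A and ATP10D were detected on 0 of 14 arrays, and no fold change is given for them. ATP8B1, ATP11A, ATP9B probe A_23_P10497 and TMEM30A probe A_33_P3380982 were detected in A172 and on no U87 array. ATP8B2 and ATP11B were detected on all 14 arrays. A probe was tested in a line when it was detected on at least 3 arrays of a group, which left 10 probes of 7 genes in A172 and 6 probes of 5 genes in U87.

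ATP11B, an endosomal flippase, was lower after siLINC00152 in each of 3 A172 pairs. Its probe A_23_P212522 read 0.83, -0.21 and 0.73 in A172 controls and -0.21, -1.17 and 0.14 after siLINC00152. The groups overlapped because control replicate 2 was low, while the differences within pairs ran from -1.03 to -0.59. The log2 fold change was -0.86 (SE 0.49, limma adjusted p = 1.00), and with pairs as blocks ATP11B fell (SE 0.13, 95% interval -1.16 to -0.56, limma adjusted p = 0.0279). Without A172 replicate 2 the blocked call ended (limma adjusted p = 0.225). With normexp the change was -0.54, close to the limit of 0.5, and without blocks it was -0.48 when A172 siLINC00152 replicate 2 alone was left out. In U87 ATP11B read -0.75, -0.48, 0.46 and 0.60 in controls and -0.94, -0.63, 0.19 and 0.55 after siLINC00152. All 4 U87 pairs were lower, by amounts between -0.28 and -0.05, while the groups overlapped almost entirely, and the fold change of -0.17 (SE 0.43) did not pass with or without blocks (limma adjusted p = 1.00 and 0.462). The ATP11B difference between the lines, -0.69 (SE 0.65), did not pass either (limma adjusted p = 1.00, and 0.331 with blocks). With arrays or pairs left out and no blocks, the U87 change of ATP11B ran from -0.42 to 0.08. The difference between the lines then ran from -1.02 to -0.31.

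TMEM30A, the partner subunit, gave opposite signs in the lines by probe A_33_P3244669. In U87 it read -0.95, -1.04, -1.75 and 0.49 in controls and -0.55, -0.30, -0.83 and 0.96 after siLINC00152, with control replicate 3 not detected. All 4 U87 pairs were higher after siLINC00152, by 0.40 to 0.92, although the groups overlapped because control replicate 4 was high. The U87 log2 fold change was 0.63 (SE 0.48, limma adjusted p = 1.00), and with pairs as blocks TMEM30A rose (SE 0.12, 95% interval 0.36 to 0.91, limma adjusted p = 0.0707). Left without U87 replicate 2 or 4, the blocked fit no longer called it (limma adjusted p = 0.257 and 0.206), and with normexp as well its fold change was 0.22, under the limit of 0.5. Without blocks the U87 change was 0.32 without control replicate 3, 1.07 without control replicate 4 and 0.25 without siLINC00152 replicate 4.

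In A172 the same TMEM30A probe read 1.28, 0.24 and 0.93 in controls and 1.00, -0.06 and 0.60 after siLINC00152. All 3 A172 pairs were lower, by amounts between -0.33 and -0.29, while the groups overlapped. This A172 change of -0.31 (SE 0.55) did not pass (limma adjusted p = 1.00, and 0.483 with blocks), and with single A172 arrays left out and no blocks it ran from -0.60, without control replicate 2, to -0.02, without siLINC00152 replicate 2. The difference between the lines was -0.94 (SE 0.73, limma adjusted p = 1.00), and with blocks it passed at limma adjusted p = 0.198. That call ended with blocks and normexp (difference -0.47, under 0.5), with blocks and the deposited log2 values (0.322), and when any single pair other than U87 replicate 3 was left out (0.367 to 0.729). Without blocks, the difference ran from -1.37 to -0.56 with arrays or pairs left out. The other TMEM30A probe, A_33_P3380982, read -1.57, -0.97 and -0.96 in A172 controls and -1.26, -0.88 and -1.02 after siLINC00152. Its A172 groups overlapped, with a log2 fold change of 0.11 (SE 0.34) that ran from -0.09 to 0.22 with arrays or pairs left out and no blocks. It was not detected in U87, so the U87 rise of TMEM30A rests on a single probe.

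ATP8B2 was the flippase besides ATP9A whose A172 groups did not overlap. It read 1.37, 1.37 and 1.32 in A172 controls and 0.96, 0.86 and 1.03 after siLINC00152. Its log2 fold change of -0.40 (SE 0.23) lay under the limit of 0.5 and did not pass (limma adjusted p = 1.00, and 0.319 with blocks). In U87 ATP8B2 read 0.68, 0.53, 0.86 and 0.91 in controls and 0.79, 0.66, 1.24 and 0.69 after siLINC00152. The U87 groups overlapped, and the fold change was 0.10 (SE 0.20).

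**Figure D2:**
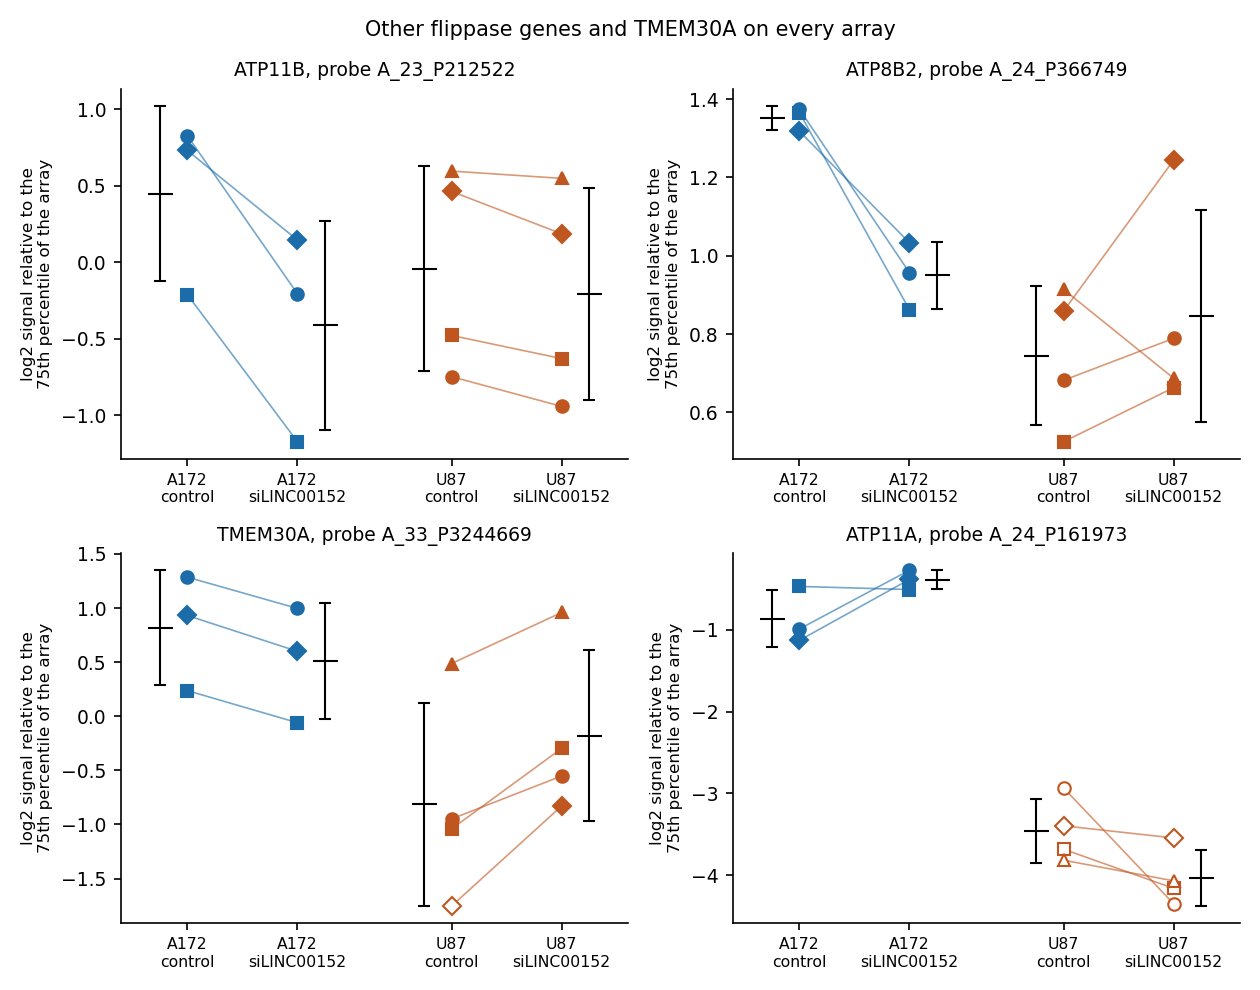
Log2 signal of ATP11B, ATP8B2, TMEM30A (probe A_33_P3244669) and ATP11A relative to the 75th percentile of each array, with lines between arrays of the same replicate number, hollow markers where the probe was not detected, and black bars for group means with SD. Vertical scales differ between panels. ATP11B lies lower in all 3 A172 pairs, and TMEM30A lies lower in all 3 A172 pairs and higher in all 4 U87 pairs.

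ATP11A, a plasma membrane flippase, read -0.99, -0.47 and -1.13 in A172 controls and -0.27, -0.51 and -0.39 after siLINC00152. It was higher in 2 of 3 pairs, the groups overlapped, and the log2 fold change of 0.47 (SE 0.30) did not pass (limma adjusted p = 1.00, and 0.655 with blocks). ATP8B1 read -1.66, -2.53 and -2.60 in A172 controls and -2.33, -3.29 and -3.44 after siLINC00152, the second of these not detected. All 3 ATP8B1 pairs were lower and the groups overlapped, with a fold change of -0.75 (SE 0.51) that did not pass (limma adjusted p = 1.00, and 0.360 with blocks). With normexp its change was -0.23. The ATP8B1 probe met the detection rule in A172 through its controls alone, so its fold change is a description. Nothing is read from its calls with blocks when U87 replicate 1 or 3 was left out.

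ATP9B is the closest relative of ATP9A among the members. Its probe A_33_P3288039 read -1.66, -1.87 and -1.56 in A172 controls and -1.77, -1.91 and -1.87 after siLINC00152, overlapping groups with a log2 fold change of -0.16 (SE 0.24). In U87 it read -2.41, -2.22, -1.87 and -2.31 in controls, none of them detected, and -2.01, -1.57, -1.74 and -2.02 after siLINC00152, detected on 3 of 4 arrays. ATP9B was higher in all 4 U87 pairs as read and the groups overlapped. The probe entered the U87 test through its siLINC00152 arrays alone, so no fold change is read against the undetected controls. It was not called with or without blocks, and nothing is read from its call with blocks and the deposited log2 values. The other ATP9B probe, A_23_P10497, is printed in 10 spots and read -1.61, -2.57 and -2.35 in A172 controls and -1.94, -2.47 and -2.51 after siLINC00152, again overlapping, with a fold change of -0.13 (SE 0.32). That fold change ran from -0.33 to 0.15 with arrays or pairs left out and no blocks.

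**Figure D3:**
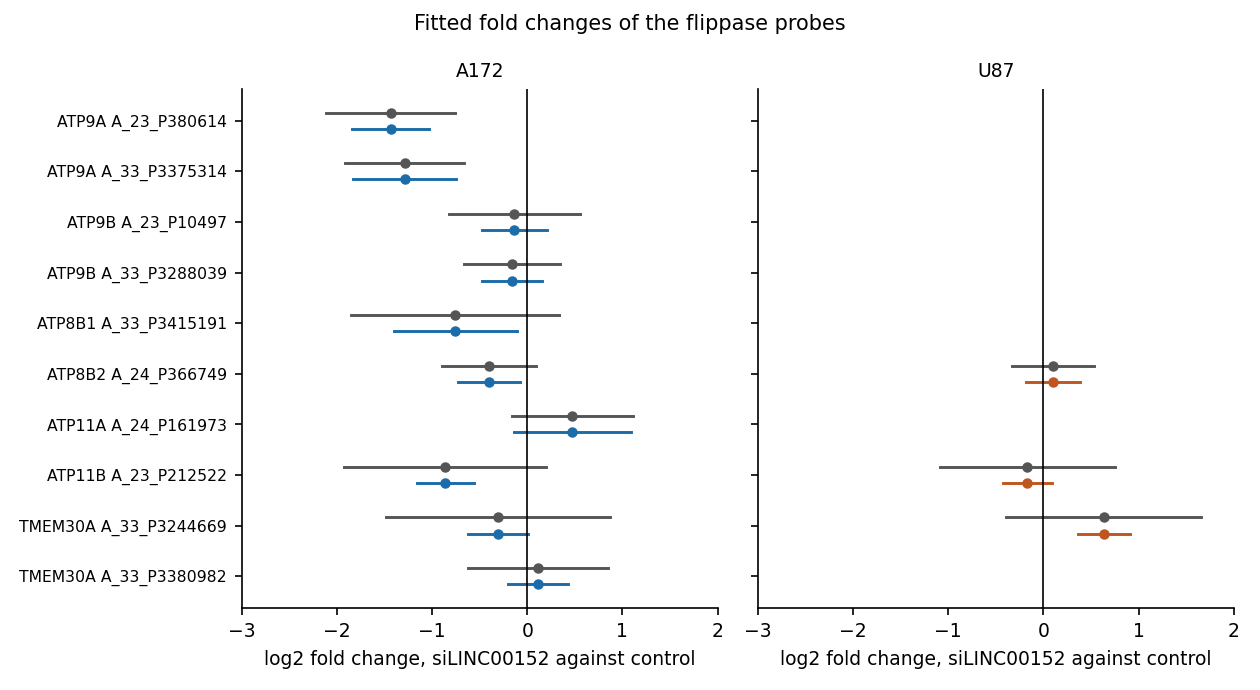
Fitted log2 fold change (siLINC00152 against control) with 95% intervals for each tested flippase probe in A172 and U87, in grey without and in colour with replicate pairs as blocks. Points left of the line were lower after siLINC00152. In U87 neither ATP9A, which was selected there, nor ATP9B, undetected in controls, is drawn, and in A172 the ATP9A intervals lie below 0 in both fits.

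Counted over the whole group, 0 of 10 tested flippase probes were called in A172 by limma without blocks, against 0.183% of all tested probes, and 2 had an unadjusted p under 0.05, both of ATP9A, against 2.28% of all. With pairs as blocks 3 were called (ATP9A by both probes and ATP11B), against 3.26% of all, and with normexp 2 (ATP9A by both probes), against 0.469% of all. The A172 groups did not overlap for 3 of the 10 probes (ATP9A by both probes and ATP8B2), against 7.08% of all tested probes in either direction. The 10 include ATP8B1, which was tested through its controls alone and added nothing to any of these counts. In A172, then, the calls were those of the 2 ATP9A probes, which measure the same gene, and of ATP11B.

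In U87 the 2 called flippase probes were those of ATP9A, on which the group was selected, so nothing is read from that count beside the 0.0502% of all tested probes. ATP9B, tested only through its siLINC00152 arrays, is left out of the counts that follow. Of the other 3 tested probes 0 were called by limma in U87, 0 had an unadjusted p under 0.05, against 2.31% of all, and with blocks 1 was called (TMEM30A), against 4.19% of all. For the difference between the lines, 0 of these 3 probes passed, against 0.00945% of all, 0 had an unadjusted p under 0.05, against 0.789% of all, and with blocks 1 passed (TMEM30A), against 0.421%. The median log2 fold change over all tested probes was 0.02 in A172 and -0.02 in U87.

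Related genes were described as lists, with 48 tested probes in A172 and 38 in U87 of 42 genes in all. By limma without blocks 0 of them were called in either line. With blocks 5 were called in A172 (1 higher, 4 lower), which is 10.4% of the tested list probes against 3.26% of all tested probes, and 3 in U87 (all higher), or 7.89% against 4.19% of all. Of the 5 calls in A172, 3 are probes of the same gene, ATP2B4. The probes named next are those called with blocks.

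The further flippases ATP8A2, ATP8B3, ATP8B4 and ATP10B and the partner TMEM30B had 3 tested probes in A172 (median log2 fold change 0.35) and 2 in U87 (median 0.33), with 0 and 1 at an unadjusted p under 0.05. ATP8B3 probe A_33_P3266646 read -1.84, -1.27, -1.71 and -1.58 in U87 controls and -1.46, -0.83, -0.36 and -0.71 after siLINC00152, with control replicate 3 not detected. It was higher in all 4 pairs although the groups overlapped, and the largest difference, 1.35, was that of replicate 3. The U87 change was 0.76 (SE 0.26, limma adjusted p = 1.00), and with blocks ATP8B3 rose (limma adjusted p = 0.130), a call that ended when any single pair other than A172 replicate 1 was left out (0.210 to 0.309) and, with normexp, at a fold change of 0.23. The other ATP8B3 probe, A_23_P79108, had fold changes of -0.09 (SE 0.68) in U87 and -0.21 (SE 0.78) in A172 and did not pass with or without blocks, so the rise rests on a single probe.

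Scramblases let phospholipids cross the membrane in either direction and so undo the work of flippases. They had 10 tested probes in A172 (median 0.11) and 7 in U87 (median 0.15), with 1 and 1 at an unadjusted p under 0.05. XKR8, the scramblase that caspases activate in dying cells, read 0.82, 0.99 and 0.55 in A172 controls and 1.49, 1.31 and 1.13 after siLINC00152. In U87 XKR8 read 1.99, 2.06, 1.59 and 1.78 in controls and 2.57, 2.61, 2.33 and 2.29 after siLINC00152. Its groups did not overlap in either line, and every pair was higher. The log2 fold changes were 0.52 (SE 0.24) in A172 and 0.59 (SE 0.20) in U87, neither passing without blocks (limma adjusted p = 1.00 in both lines). With blocks XKR8 rose in both lines (limma adjusted p = 0.123 and 0.0658), but with blocks and normexp its fold changes of 0.44 and 0.44 lay under the limit of 0.5. Leaving out any single A172 pair ended the blocked A172 call (0.307 to 0.522 by limma adjusted p), as did leaving out U87 replicate 1 or 2 (0.216 and 0.206), and leaving out U87 replicate 1, 2 or 4 ended the U87 call (0.210 to 0.232).

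VMP1, a scramblase of the endoplasmic reticulum, read 1.29, -0.24 and 0.78 in A172 controls and 0.32, -0.79 and 0.29 after siLINC00152. All 3 pairs were lower and the groups overlapped. The change was -0.67 (SE 1.00, limma adjusted p = 1.00), and with blocks VMP1 fell in A172 (limma adjusted p = 0.0889), until any single A172 pair was left out (0.295 to 0.376) or normexp was used (fold change -0.50, just short of the limit).

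Genes of endosomal recycling that work with ATP9A or the retromer, such as MON2, DOP1A, SNX3 and VPS35, had 13 tested probes in A172 (median -0.00) and 12 in U87 (median 0.22), with 0 at an unadjusted p under 0.05 in either line. VPS29, a retromer subunit, was the list's call with blocks: it read 2.05, 2.18, 0.46 and 2.38 in U87 controls and 2.47, 2.49, 1.56 and 2.76 after siLINC00152. All 4 pairs were higher and the groups overlapped. The change was 0.55 (SE 0.39, limma adjusted p = 1.00, and 0.154 with blocks), and the blocked call ended with the deposited log2 values (0.210), with normexp (fold change 0.41) and when any single pair other than U87 replicate 3 was left out (0.210 to 0.318). Without U87 replicate 3 the fold change was 0.37, under the limit. PTDSS1, PTDSS2 and PISD, which make phosphatidylserine or convert it, had 3 tested probes in each line with medians of 0.10 and 0.25 and 0 at an unadjusted p under 0.05.

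P-type ATPases outside the flippase branch, ion pumps among them, had 19 tested probes in A172 and 14 in U87, with a median of -0.08 in both and 2 and 0 at an unadjusted p under 0.05. ATP2B4, a plasma membrane calcium pump, was lower in A172 by 3 probes, with fold changes of -0.70, -0.68 and -0.66. Its probe A_33_P3327200 read -0.10, -0.74 and -0.37 in A172 controls and -0.86, -1.34 and -0.98 after siLINC00152, groups that did not overlap. The A172 groups of the other 2 ATP2B4 probes overlapped. None of the ATP2B4 probes passed without blocks (limma adjusted p = 1.00), and with blocks ATP2B4 fell by all 3 (limma adjusted p = 0.177, 0.142 and 0.0740), although leaving out any single A172 pair ended each of these calls. Leaving out U87 replicate 1, 2 or 4 ended them for the first 2 probes, the deposited log2 values for the first (0.213), and normexp for the other 2, at fold changes of -0.42 and -0.42.

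**Figure D4:**
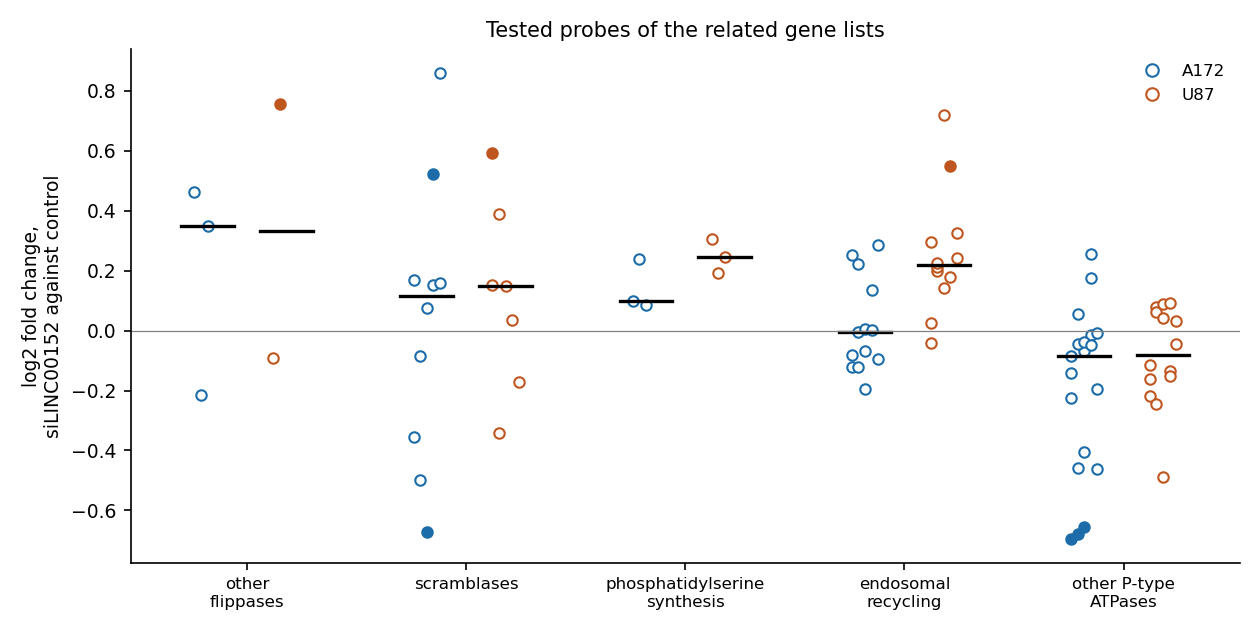
Log2 fold change (siLINC00152 against control) of every tested probe in the lists of related genes, A172 in blue and U87 in orange, with black bars for the median of each list and line. Filled points were called with replicate pairs as blocks, and none was called without them. XKR8 is the scramblase point filled in both lines.

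The probes whose pattern was most like that of ATP9A were found by Pearson correlation with the mean of its 2 probes over the 14 arrays, after each line was centred on its own mean, among 21920 probes tested in U87. All arrays share the siRNA groups that the choice of ATP9A used, so the coefficients describe and test nothing. LINC00152 itself came first (r = 0.955), followed by MIR4435-2HG probe A_21_P0012079 (0.947), DPH2 (0.946), TESK1 (0.916) and AGTRAP (0.915). MIR4435-2HG is a long non-coding RNA gene closely related in sequence to LINC00152, DPH2 takes part in making the diphthamide residue of elongation factor 2, TESK1 is a kinase that acts on cofilin, and AGTRAP binds the angiotensin receptor.

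As they were picked for following ATP9A across these siRNA groups, their fold changes are a description with no test. The log2 fold changes in A172 and U87 were -2.44 and -2.97 for MIR4435-2HG, -1.31 and -1.33 for AGTRAP, -0.67 and -0.75 for TESK1, and -0.53 and -0.78 for DPH2. Over the 8 U87 arrays alone, 1 of these 5 probes, that of LINC00152, was again among the first 5.

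**Figure D5:**
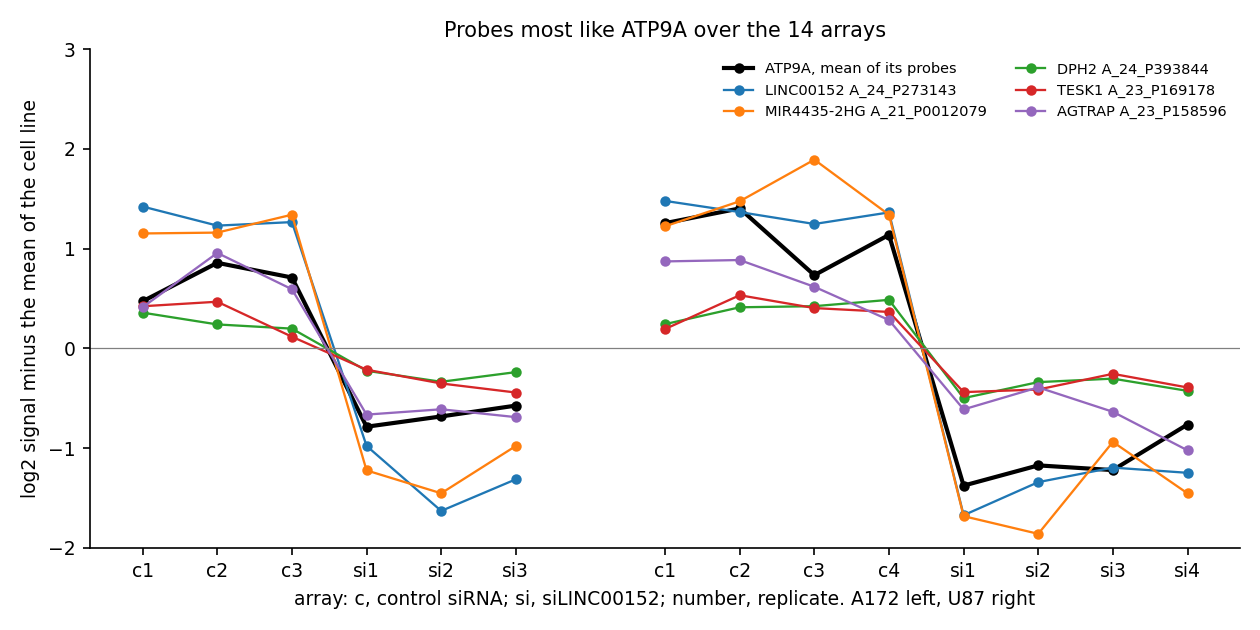
Log2 signal of ATP9A (mean of 2 probes, thick black line) and of the 5 probes most like it, each minus its mean in the cell line, on every array, with A172 to the left and U87 to the right. The lines drop from control to siLINC00152 arrays in both cell lines, and the drop is smaller for DPH2 and TESK1 than for LINC00152.

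ATP9A lies on chromosome 20, and in RefSeq's gene order NFATC2 lies to one side and SALL4 and ZFP64 to the other. None of their tested probes was called in either line by limma, with or without blocks, and their log2 fold changes ran from -0.45 to 0.25. The next gene beyond NFATC2 on that side had no probe.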

How the data were processed

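The authors deposited scanner output for each of the 14 arrays, in which each spot has an intensity after background removal by Agilent Feature Extraction 11.5.1.1, and a table of log2 values that the authors normalized between arrays. The values of that table had nearly the same distribution on all arrays (largest difference at a rank 0.000942). Here the processed intensity of 58717 non-control spots was put on the log2 scale and reduced by each array's 75th percentile. Outlier spots were left out and spots of a probe were averaged. A probe was detected on an array when at least 0.5 of its spots were well above background. Probes were named by matching accessions to RefSeq's gene table (GRCh38.p14), which named 29033 of 50599, and whose positions were used for the order of genes around ATP9A alone.

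A limma 3.58.1 model of 4 groups was fitted in R 4.3.3 to all arrays, with Benjamini-Hochberg adjustment over all probes tested in a line (28338 in A172, 21921 in U87). Each probe had a single spread estimate over both lines, so SE and p of a line also draw on the arrays of the other. Differences between the lines were an interaction over 21163 probes. Replicate numbers were checked for pairing, and blocks for the pairs were fitted beside the model without them. Normexp used the median signal with an offset of 50. Other alternatives concerned the filter on dim probes, normalization, the deposited log2 values, the FDR, the arrays in a model and replicates left out.

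The members and gene lists were chosen with earlier results of these data known, and the lists are not complete. Named probes are all probes of the members, LINC00152, list probes called in a line, the 5 probes most like ATP9A and the nearest 2 genes on each side of it.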

Additional observations from a re-analysis of the deposited data

Results flagged for a closer look

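The effect of siLINC00152 on TMEM30A probe A_33_P3244669 was lower in all 3 A172 pairs and higher in all 4 U87 pairs. The A172 effect minus the U87 effect was -0.94 on the log2 scale (SE 0.73), with limma adjusted p = 1.00 without blocks and 0.198 with replicate pairs as blocks. With arrays or pairs left out and no blocks, this difference ran from -1.37 to -0.56. The blocked call ended with normexp (-0.47, under the limit of 0.5), with the deposited log2 values (0.322) and when any single pair other than U87 replicate 3 was left out (0.367 to 0.729). The other TMEM30A probe, A_33_P3380982, was higher in 2 of 3 A172 pairs and was not detected in U87. Its A172 log2 fold change of 0.11 ran from -0.09 to 0.22 with arrays or pairs left out and no blocks. ATP9B probe A_33_P3288039 also read lower in all 3 A172 pairs and higher in all 4 U87 pairs. Taken from the signals as read, its A172 effect minus its U87 effect was -0.53. It was detected on 0 of 4 U87 control arrays, so no test of this difference is given and nothing is read from its U87 side. By Dixon's 95% critical value no array was an outlier in a U87 group for any of the 13 flippase probes, the high TMEM30A readings of U87 replicate 4 included, and groups of 3 were not examined for this. With 4 arrays in a group this check has little power, so it does not clear any single array.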

How the results depend on the processing

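ATP9A kept its sign in A172 under every alternative tried, for both probes. As its A172 groups did not overlap, leaving out arrays or pairs could not have changed that sign. The count of called flippase probes in A172, 0 as reported, became 2 with normexp and 1 with quantile normalization. With replicate pairs as blocks it became 3, also with blocks and normexp (3) and with blocks and the deposited log2 values (3). With arrays or pairs left out, with or without blocks, it ran from 0 to 4, and it reached 4 with blocks and without U87 replicate 1 or 3. The added call there was ATP8B1, which was tested in A172 through its controls alone, so nothing is read from it. Without blocks it was 2 without U87 replicate 3 and without U87 control replicate 3, and 1 without U87 siLINC00152 replicate 1. The count in U87, 2 as reported and both of ATP9A, became 0 with normexp, 0 when detection on every array of a group was asked, 0 with blocks and normexp, and 4 with blocks and the deposited log2 values, where ATP9B, undetected in U87 controls, was the added call. It was 3 with blocks alone. With arrays or pairs left out it ran from 0 to 3, and without blocks it was 0 without U87 replicate 1, 2 or 4 or the control array of any of these. In those fits, and when detection on every array was asked, the ATP9A probes no longer met the detection rule and were not tested. For the difference between the lines the count of 0, to which ATP9B added no call, became 1 with blocks and ran from 0 to 1 with arrays or pairs left out. With normexp several fold changes were smaller, in A172 -0.54 for ATP11B, 0.30 for ATP11A, -0.23 for ATP8B1, -0.06 and -0.05 for the ATP9B probes and 0.06 for TMEM30A probe A_33_P3380982, and in U87 -1.52 for LINC00152 and -0.08 for ATP11B. With single arrays left out and no blocks, A172 changes were -0.45 for ATP8B1, -0.33 for VMP1, -0.67 for CD44 probe A_33_P3294509 and -0.35 for ATP2B4 probe A_24_P405205 without control replicate 1, and -1.09 for VMP1 without control replicate 2 and -0.30 without siLINC00152 replicate 2. For that ATP2B4 probe the change was -0.44 without A172 siLINC00152 replicate 3, and for VPS29 in U87 it was 0.11 without control replicate 3. The LINC00152 difference between the lines, 0.12 and not called, was -0.71 with blocks and normexp, where it was called.

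Over all probes, the A172 count of 52 was 133 with normexp, 34 with no filter on dim probes, 14 with each line fitted by itself, 27 at an FDR of 0.05, 924 with blocks, 636 with blocks and normexp and 679 with blocks and deposited values. It ran from 4 to 1422 with arrays or pairs left out. Without blocks it was 32, 15 and 4 without A172 replicate 1, 2 and 3, 29, 30 and 127 without U87 replicate 1, 2 and 3, 21 without A172 control replicate 3, 27 without A172 siLINC00152 replicate 2 or 3, and 90 without U87 control replicate 3. The U87 count of 11 was 4 with normexp, 7 at an FDR of 0.05, 918 with blocks, 142 with blocks and normexp and 634 with blocks and deposited values. It ran from 2 to 738 with arrays or pairs left out. Without blocks it was 3, 3 and 2 without U87 replicate 1, 2 and 4, 4, 4, 17 and 7 without U87 control replicate 1, 2, 3 and 4, and 7 without U87 siLINC00152 replicate 1 or 4. In the model of all arrays both lines shared a single spread estimate per probe. Leaving out arrays of a line therefore also changes SE and p in the other line. What in the arrays moved the counts was not tested. Blocks combined with normexp, with deposited values or with pairs left out were chosen after seeing the data. Signal over background limits U87, where both ATP9A probes were undetected on all 4 siLINC00152 arrays.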

Other observations

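CD44, a hyaluronan receptor and the marker gene that was called with blocks, read 3.00, 1.76 and 1.47 in A172 controls and 1.72, 0.66 and 0.47 after siLINC00152 by probe A_33_P3294509. All 3 A172 pairs were lower, although the groups overlapped. Its log2 fold change was -1.13 (SE 0.56, limma adjusted p = 1.00), and with replicate pairs as blocks CD44 fell (SE 0.12, limma adjusted p = 0.00807), a call kept in each of 10 blocked fits. In U87 the same CD44 probe read 2.79, 2.90, 1.27 and 3.05 in controls and 2.91, 2.88, 1.54 and 3.15 after siLINC00152, with a fold change of 0.12 (SE 0.48). This U87 change ran from -0.29 to 0.48 with arrays or pairs left out and no blocks. The difference between the lines was -1.25 (SE 0.74, limma adjusted p = 1.00, and 0.0861 with blocks), and the blocked call ended when any single pair other than U87 replicate 3 was left out (0.215 to 0.411). Without blocks, the difference ran from -1.63 to -0.79 with arrays or pairs left out. The other CD44 probe, A_21_P0000152, had a fold change of -0.24 (SE 0.31) in A172, which did not pass with or without blocks (limma adjusted p = 1.00 and 0.694).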
